A study of Mus musculus with 6 samples.

Results

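Mural cells are the contractile and supporting cells of the vessel wall, and here they were the cells of the mouse skull with transcripts of smooth muscle or pericyte genes and none of the endothelial cadherin. Members were chosen by UMI (unique molecular identifier) counts: at least 5 UMIs of Acta2 and Rgs5 together, at least 2 UMIs of Myh11, Tagln, Notch3 and Kcnj8 together, and no UMI of Cdh5. These limits kept 123 of 37576 quality-filtered cells, or 0.327% (exact Clopper-Pearson 95% interval 0.272 to 0.390%). Since the 7 genes chose the cells, their own values are a description and support nothing.

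The study sampled calvaria of wild-type C57BL/6 mice, stated to be male and given no treatment, at 2, 12 and 18 months (02m, 12m, 18m). Each age gave a library of marrow and suture mesenchyme next to the sagittal suture (CBMA) and a library of marrow away from it (CBMD). Between 6 and 8 mice were pooled per age, so each of the 6 libraries is 1 sample and no difference between ages or sites could be tested across mice. Intervals below cover the counting of UMIs or cells alone.

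Mural cells wrap the endothelial tube. Smooth muscle cells ring arteries and arterioles and contract through the myosin Myh11 and actin Acta2, while pericytes lie along capillaries inside the basement membrane and are held there by PDGF signals to their receptor Pdgfrb. In bone marrow, cells around arterioles are also known as a source of factors that retain blood stem cells. Rgs5 and Rgs4 limit signals from G-protein-coupled receptors, and Kcnj8 and Abcc9 are the pore and the sulfonylurea receptor of an ATP-sensitive potassium channel typical of pericytes. On GRCm38, Acta2 lies at chromosome 19:34241090-34255590, Myh11 at chromosome 16:14194535-14291372, Tagln at chromosome 9:45929619-45936058 and Notch3 at chromosome 17:32120820-32166852. Rgs5 (chromosome 1:169655501-169695813) and Rgs4 (chromosome 1:169741477-169747642) are close neighbours, as are Kcnj8 (chromosome 6:142564837-142571614) and Abcc9 (chromosome 6:142587862-142702315).

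Contractile genes differed between the groups of cells described below, and serum response factor is known to bind the CArG box in front of many of them. The box was therefore searched, as letters on both strands, in 300-base windows of RefSeq (GRCm38.p6) from 250 bases before to 50 bases after a gene start. It was present in 425 of 27025 windows (1.57%), in 4 of the 23 windows found for 27 contractile genes (Cnn2, Ldb3, Myl9 and Vcl) and in 0 of the 18 found for 29 pericyte genes. When 1 base away from the box was allowed, the numbers were 5772 windows (21.4%), 10 contractile genes and 4 pericyte genes. The window of Myl9, the regulatory light chain of smooth muscle myosin, held a box 161 to 152 bases before the start and a stretch 1 base away from it at 99 to 90, and that of Acta2 held 2 stretches 1 base away from it. The window of Rgs5 held neither form, which says only that these letters are not in it. The 3 windows are shown with the letters of both forms in capitals, Myl9 (chr2:156775214-156775513, plus strand), Acta2 (chr19:34255324-34255623, minus strand) and Rgs5 (chr1:169655251-169655550, plus strand).
Myl9: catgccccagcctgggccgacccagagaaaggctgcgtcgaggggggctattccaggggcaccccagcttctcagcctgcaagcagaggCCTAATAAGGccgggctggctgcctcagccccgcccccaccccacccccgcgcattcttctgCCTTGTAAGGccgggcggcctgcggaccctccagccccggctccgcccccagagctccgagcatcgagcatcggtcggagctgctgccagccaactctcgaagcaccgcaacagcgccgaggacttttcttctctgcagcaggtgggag
Acta2: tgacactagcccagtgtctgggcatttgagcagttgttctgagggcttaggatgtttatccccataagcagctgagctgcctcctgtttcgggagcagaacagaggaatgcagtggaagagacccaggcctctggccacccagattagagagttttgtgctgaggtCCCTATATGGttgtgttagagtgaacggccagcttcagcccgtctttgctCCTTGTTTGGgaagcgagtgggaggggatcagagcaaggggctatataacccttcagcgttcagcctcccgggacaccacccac
Rgs5: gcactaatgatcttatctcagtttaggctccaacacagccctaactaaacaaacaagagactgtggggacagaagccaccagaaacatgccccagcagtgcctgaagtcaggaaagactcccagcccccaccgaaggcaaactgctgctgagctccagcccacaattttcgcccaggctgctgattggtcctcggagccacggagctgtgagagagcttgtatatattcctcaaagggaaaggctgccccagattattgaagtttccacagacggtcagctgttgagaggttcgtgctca

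The mural cells were spread unevenly over the libraries. In CBMA there were 13 of 8580 cells at 02m (0.152%, 0.0807 to 0.259), 12 of 2718 at 12m (0.442%, 0.228 to 0.770) and 65 of 7232 at 18m (0.899%). In CBMD there were 26 of 7956 cells at 02m (0.327%), 5 of 4464 at 12m (0.112%) and 2 of 6626 at 18m (0.0302%). The share at 18m was thus 5.93 times that at 02m in CBMA (3.24 to 11.7) and 0.0924 times that at 02m in CBMD (0.0106 to 0.369). The 2 cells of CBMD_18m go against the label, as described below. CBMA held a smaller share than CBMD at 02m (ratio 0.464, 0.219 to 0.935) and a larger one at 12m (3.94, 1.29 to 14.3) and 18m (29.8, 7.92 to 251). In dissociated tissue, fewer cells of a type and less efficient release or capture of them cannot be told apart.

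**Figure D1:**
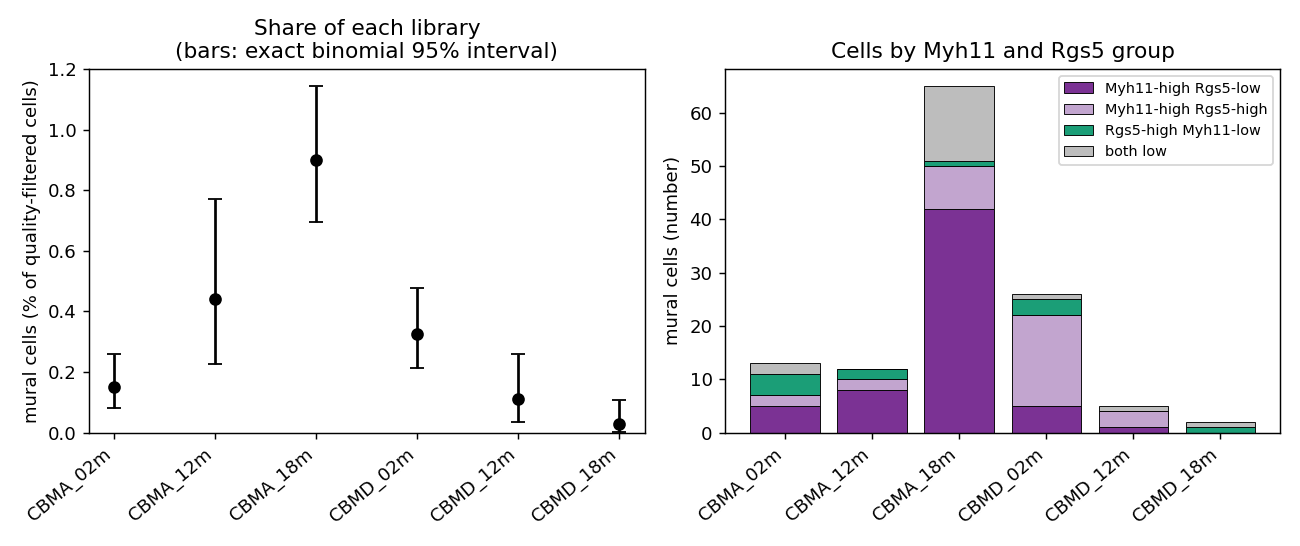
Mural cells by library. Left, share of quality-filtered cells (%) with the exact binomial 95% interval, from 0.0302% in CBMD_18m to 0.899% in CBMA_18m. Right, number of cells in each of the 4 groups set by Myh11 and Rgs5, with 42 of the 61 Myh11-high Rgs5-low cells in CBMA_18m and 17 of the 32 Myh11-high Rgs5-high cells in CBMD_02m.

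Endothelial cells, chosen by at least 5 UMIs of Cdh5 and Pecam1 and fewer than 5 of Acta2 and Rgs5, did not follow the same order. CBMA held 21, 71 and 103 of them from the youngest to the oldest age, and CBMD 23, 52 and 53. Their share at 18m over 02m was 5.82 times in CBMA (3.61 to 9.80), close to that of mural cells, and 2.77 times in CBMD (1.67 to 4.73), where mural cells were fewer. Cxcl12-abundant stromal cells, chosen by Cxcl12 with Lepr or Adipoq, counted 2, 5 and 101 cells in CBMA, with 0, 22 and 42 in CBMD. The endothelial limits could be met by Pecam1 UMIs alone, and cells with leukocyte genes were not left out of the endothelial counts.

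Several facts about the libraries touch these counts. Of the 123 cells, 23 were called doublets by rank of a Scrublet score, and 12 of these were among the 13 mural cells of CBMA_02m, where 7.80% of all cells were called. None of the 13 held a UMI of the leukocyte gene Ptprc, which 16 mural cells of the other libraries did. With called doublets left out, CBMA_02m kept 1 mural cell, CBMA_12m 12, CBMA_18m 58, CBMD_02m 23, CBMD_12m 5 and CBMD_18m 1, so that CBMA_18m still held the most and CBMD_18m fewer than CBMD_02m. Xist was read in 5 of 12 mural cells of CBMA_12m and in 2 of 5 of CBMD_12m, with 29 and 8 UMIs, and in no mural cell of the other 4 libraries, although all mice were stated to be male. Mural cells were deeper than the rest, at a median of 8895 UMIs against 3585, with 11019 in CBMA_18m. Once every cell was thinned to 2000 UMIs, 10, 12 and 53 cells remained in CBMA and 24, 4 and 0 in CBMD. A barcode was shared with another library by 323 quality-filtered cells but by 1 mural cell, which had 74 UMIs of Acta2 and Rgs5 where its partner had 0.

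The limits cut through few cells. Exactly 5 UMIs of Acta2 and Rgs5 were found in 3 members, and 6 cells outside had 4. Exactly 2 UMIs of the second set were found in 2 members, 9 cells outside had 1, and 1 cell stayed out for its Cdh5 UMIs alone. The median member had 74 UMIs of Acta2 and Rgs5.

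Few cells lay right at the limits for Myh11 and Rgs5, but Myh11 was graded among Rgs5-high cells. Myh11-high cells with fewer than 10 Myh11 UMIs were Rgs5-high, except for a CBMA_12m cell. Myh11 had 0 UMIs in 29 cells, 1 in 1 cell, 2 to 4 in 3 and 10 or more in 81, and Rgs5 had 0 in 73 cells, 1 or 2 in 7, 3 or 4 in none and 10 or more in 36. Cells with at least 2 Myh11 UMIs were called Myh11-high and those with at least 5 Rgs5 UMIs Rgs5-high. This gave 61 Myh11-high Rgs5-low cells, 32 Myh11-high Rgs5-high cells, 11 Rgs5-high Myh11-low cells and 19 cells low in both. Median depths were 10281, 7391, 3331 and 12293 UMIs.

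**Figure D2:**
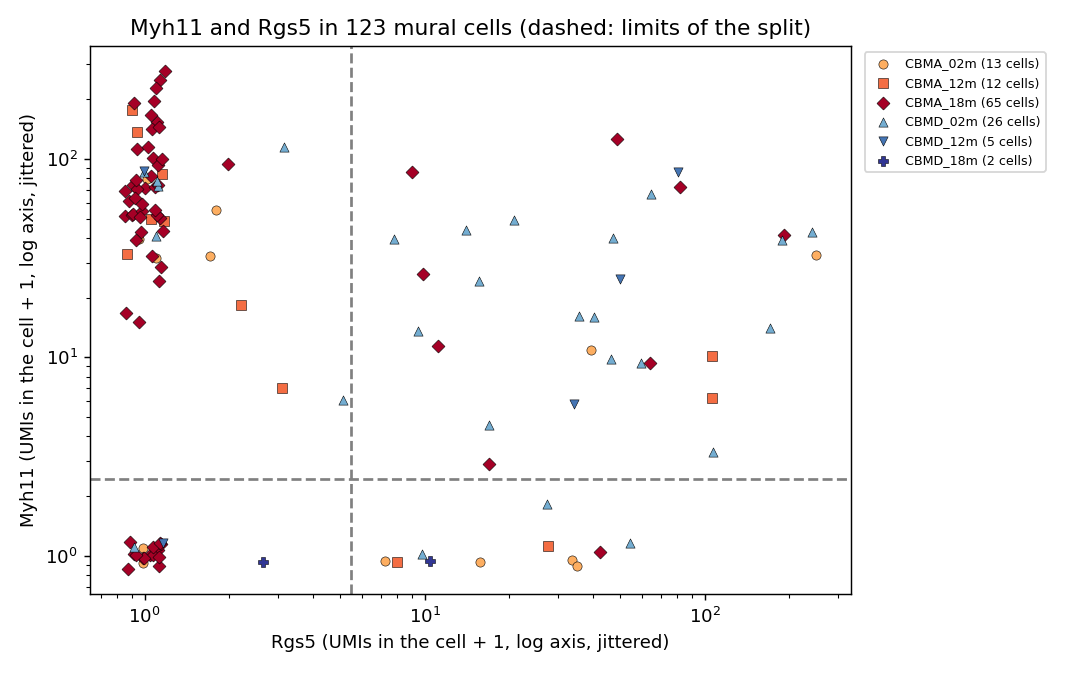
Rgs5 and Myh11 in each of the 123 mural cells, as UMIs in the cell plus 1 on log axes with small jitter, with symbols for the 6 libraries and dashed lines at the limits. Most CBMA_18m cells stand at the left edge, with 0 Rgs5 UMIs, and most CBMD_02m cells to the right of the Rgs5 limit.

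Myh11-high cells made up 75.6% of mural cells (93 of 123, 67.0 to 82.9%). From the youngest to the oldest age, CBMA held 7, 10 and 50 of them and CBMD 22, 4 and 0. Their share at 18m over 02m was 8.47 times in CBMA (3.82 to 22.2) and 0 in CBMD (0 to 0.219). The absence from CBMD_18m was read in 6626 cells, which allows a share of up to 0.0557% by the Clopper-Pearson limit. Myh11 had 9 to 70 UMIs per Myh11-high cell in CBMA_02m (median 31), 5 to 164 in CBMA_12m (39), 2 to 283 in CBMA_18m (61.5), 2 to 108 in CBMD_02m (38) and 5 to 96 in CBMD_12m (52). These ranges overlapped in all 5 libraries.

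The share of Myh11-high cells that were Rgs5-high ranged from 16% to 77.3% over 5 libraries. Rgs5 was high in 2 of 7 Myh11-high cells of CBMA_02m (28.6%, 3.67 to 71.0), 2 of 10 of CBMA_12m (20%, 2.52 to 55.6) and 8 of 50 of CBMA_18m (16%, 7.17 to 29.1). In CBMD it was high in 17 of 22 at 02m (77.3%, 54.6 to 92.2) and 3 of 4 at 12m (75%, 19.4 to 99.4). The intervals of CBMA_18m and CBMD_02m, which differ in age as well as site, did not overlap, while those of the 2 sites overlapped at 02m and at 12m. The summed level of Rgs5 in Myh11-high cells was 5420 CPM (the UMIs of a gene per 1e6 UMIs of the cells) in CBMA_02m, 3169 in CBMA_12m, 860 in CBMA_18m, 6649 in CBMD_02m and 4544 in CBMD_12m. CBMA_02m thus lay above CBMD_12m in this level, and its 285 Rgs5 UMIs came largely from 1 cell with 243. With called doublets and cells with a Ptprc UMI left out, Rgs5 was high in 1 of 8 cells of CBMA_12m, 7 of 42 of CBMA_18m, 12 of 16 of CBMD_02m and 3 of 4 of CBMD_12m, and no Myh11-high cell of CBMA_02m was left.

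The label of the whole set held for the Myh11-high cells as a sum, though not for each of them. A CBMD_02m cell had 0 UMIs of Myl9, Mylk, Lmod1 and Pdgfrb, with 289 of S100a8 and 2 of Ptprc. The list counts below are for all mural cells. Myl9 stood at 6178 CPM in Myh11-high Rgs5-low cells and 3655 in Myh11-high Rgs5-high cells, against 0 in endothelial cells and 61.1 in Cxcl12-abundant stromal cells. Tpm2, a tropomyosin, stood at 5170 and 2849 CPM against 2.9 and 35.3. Against endothelial cells, 22 of the 23 measured genes of the contractile list were at least 2-fold higher in mural cells and 0 lower (median log2 ratio 4.39), while 1019 of all 9097 measured genes were higher (11.2%) and 2096 lower (23%). For the pericyte list, 19 of 23 measured genes were higher than in endothelial cells and 17 of 22 higher than in Cxcl12-abundant stromal cells, against which 858 of all 6942 measured genes were higher (12.4%) and 1011 lower (14.6%). Cspg4 (NG2, a proteoglycan of mural cells) had 309 UMIs in mural cells against 0 and 4, and Pdgfrb 498 UMIs against 15 and 851, the latter a level 0.727 times that of Cxcl12-abundant stromal cells (0.650 to 0.813). Of the endothelial list, 13 of 13 measured genes were lower in mural cells than in endothelial cells, and a Pecam1 UMI was found in 2 members, 1 UMI at most. These 3 kinds of cells were all chosen by measured genes, so the counts describe the choice.

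**Figure D3:**
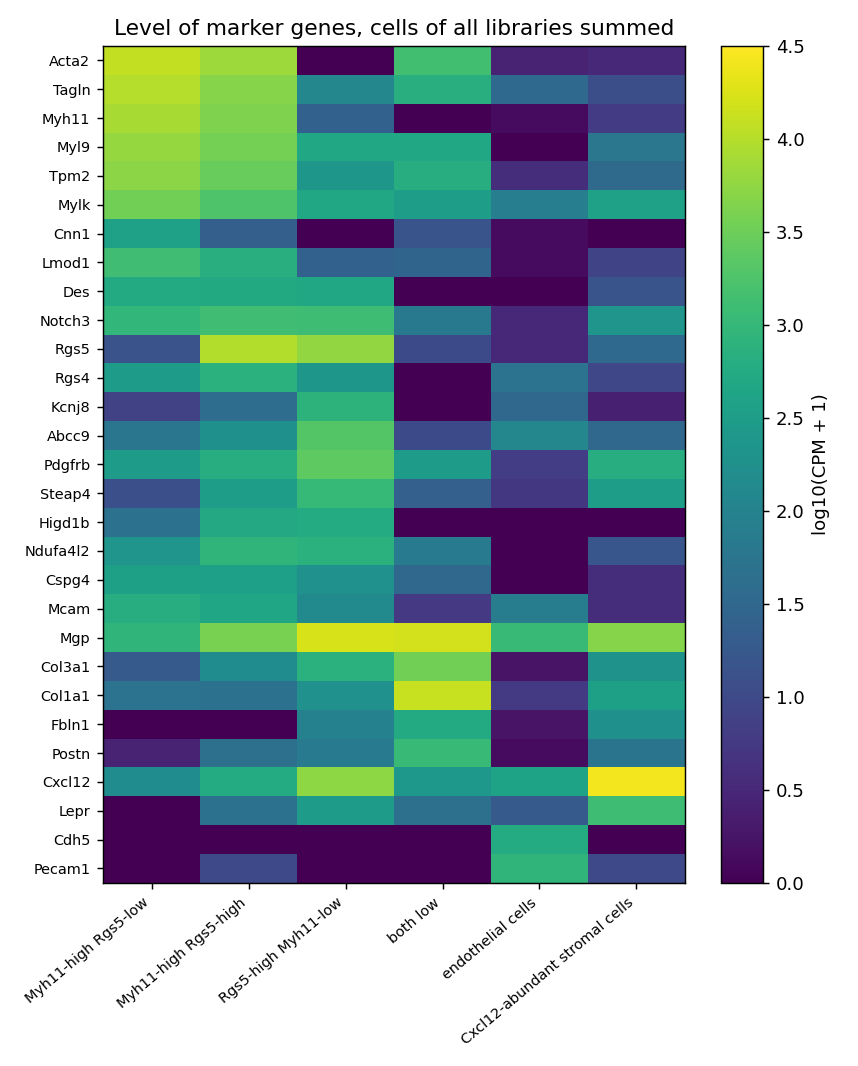
Level of 29 marker genes, as log10 of CPM plus 1, in the 4 groups of mural cells, in endothelial cells and in Cxcl12-abundant stromal cells, with the UMIs of all libraries summed (the Rgs5-high Myh11-low column holds all 11 cells). Contractile genes fill the first 2 columns, Abcc9, Kcnj8 and Pdgfrb stand out in Rgs5-high Myh11-low cells, and Col1a1 and Col3a1 in the cells low in both.

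Genes of vessel tone and excitability were mixed in mural cells. Pln, which restrains the calcium pump of the sarcoplasmic reticulum, had 720 UMIs in mural cells and 0 in endothelial and in Cxcl12-abundant stromal cells, a level at least 597-fold and at least 298-fold higher against a floor of 3 UMIs over the group. Gucy1a1, a subunit of the nitric oxide receptor, was 108-fold higher than in endothelial cells (65.9 to 190) and 34.5-fold higher than in Cxcl12-abundant stromal cells. Pde3a, a phosphodiesterase of cyclic nucleotides, was 36.8-fold and 81.8-fold higher. Ednra, a receptor of endothelin, had 224 UMIs against 0 in endothelial cells. Of 31 channel and calcium genes, 24 were measured against endothelial cells, of which 17 were higher and 3 lower. Of the 20 genes found of the cGMP and G-protein list, 16 were measured, 8 of them higher and 3 lower. Of 32 vasoactive receptors, 12 were measured, with 3 higher and 5 lower. Over all 9097 genes measured against endothelial cells, 1019 (11.2%) were higher and 2096 (23%) lower.

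MHC class I genes were low in mural cells. B2m, the light chain of MHC class I, stood at 540 CPM, against 1909 in endothelial cells and 3707 in Cxcl12-abundant stromal cells. The ratios were 0.283 (0.259 to 0.308) and 0.146 (0.133 to 0.159). H2-D1 stood at 334 CPM against 1160 and 3348. In all, 12 of 13 genes of the list were at least 2-fold lower than in endothelial cells and 13 of 13 lower than in Cxcl12-abundant stromal cells, with none higher. Of all measured genes, 2096 of 9097 (23%) and 1011 of 6942 (14.6%) were lower. Interferon-stimulated genes had 17 of 25 lower than in endothelial cells (median log2 ratio -1.17) and 19 of 23 lower than in Cxcl12-abundant stromal cells, with none higher. Genes of the cell cycle had 16 of 17 lower than in endothelial cells. The endothelial cells were not cleared of blood cell transcripts. Against them, mural cells were also lower in 8 of 9 measured leukocyte markers and 8 of 8 immunoglobulin genes. The part of such transcripts in the counts against endothelial cells was not tested.

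Among 17 niche factors for blood cells, 13 of the 15 measured were lower in mural cells than in Cxcl12-abundant stromal cells and 1 was higher, where 14.6% of all measured genes were lower and 12.4% higher. Cxcl12, which retains blood stem cells, stood at 464 CPM in mural cells, 399 in endothelial cells and 25994 in Cxcl12-abundant stromal cells, which were chosen by it. Of its 507 UMIs in mural cells, 280 came from 2 cells, and without these the level was 211 CPM, below that of endothelial cells. The 2 were a CBMD_18m cell with 213 UMIs that also met the limits for Cxcl12-abundant stromal cells and a CBMA_18m cell with 67 that did not. Kitl, the ligand of the receptor Kit, stood at 218, 203 and 1528 CPM. Jag1, a Notch ligand, stood at 168, 60.3 and 113 CPM.

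The Rgs5-high Myh11-low cells had UMIs of Abcc9, Kcnj8 and Pdgfrb and low levels of contractile genes. Kcnj8 is among the genes of the limits, and cells without Myh11 and Tagln UMIs could enter only through it or Notch3. Acta2 was at 0 UMIs in all 11, and Myh11 had 1 UMI and Tagln 5 UMIs in total. Abcc9 was found in 10 of the 11 cells with up to 24 UMIs, Kcnj8 in 9 and Pdgfrb in all 11 with 2 to 22 UMIs. The cells came from every library but CBMD_12m, with 4 in CBMA_02m, 2 in CBMA_12m, 1 in CBMA_18m, 3 in CBMD_02m and 1 in CBMD_18m. The CBMD_18m cell departed from the others: it had 213 Cxcl12 UMIs, no Abcc9 or Kcnj8 UMI, and met the limits for Cxcl12-abundant stromal cells, against at most 6 Cxcl12 UMIs in the other 10. It goes against the label and was left out of the values that follow.

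In the other 10 cells, Abcc9 stood at 2479 CPM against 91.3 in Myh11-high cells (27.1-fold, 19.7 to 37.5) and Pdgfrb at 2922 against 395 (7.39-fold, 5.84 to 9.28). Steap4, a metalloreductase, was 12.8-fold higher (8.48 to 18.9). Mgp, a matrix protein that limits calcification, was 10.8-fold higher (9.85 to 11.9), and Nr2f1, a nuclear receptor, 7.88-fold (5.19 to 11.7). These 5 are among the 10 genes with the largest ratios. Sorbs2, Pln, Map1b and Synm had no UMI in these cells and 1581, 720, 503 and 412 UMIs in Myh11-high cells. Of the contractile list, 0 of 23 measured genes were higher and 20 lower (median log2 ratio -3.19), where all 2881 measured genes had a median of 0.02, with 331 higher (11.5%) and 842 lower (29.2%). The pericyte list had 7 higher and 2 lower of 18 measured. The channel and calcium list had 2 higher and 12 lower of 17 measured (median log2 ratio -1.04). Vasoactive receptors had 0 higher and 1 lower of 3, and the cGMP and G-protein list 1 higher and 4 lower of 12. Of these 10 cells, 8 were called doublets by rank, and none held a Ptprc UMI. The other 2, both in CBMA_12m, had 4 and 7 Abcc9 UMIs, 3 and 5 Kcnj8 UMIs and 0 Acta2 UMIs.

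The 19 cells low in both genes went against the label. They met the limits through Acta2 and Tagln at low levels, at 1375 and 685 CPM, while Myh11 and Kcnj8 were at 0 UMIs in all 19. Genes of matrix were high in them: Col1a1 stood at 13378 CPM against 50.9 in Myh11-high Rgs5-low cells, Mgp at 15608 against 877, and Sparc at 7754 against 838. Sfrp2, a secreted modulator of Wnt signals, had 1602 UMIs in 11 of these cells against 2 UMIs in all 93 Myh11-high cells, a ratio of 3045 (842 to 25168). Of the fibrillar matrix list, 26 of 28 measured genes were at least 2-fold higher than in Myh11-high cells and 1 was lower (median log2 ratio 3.50), while 375 of all 3475 measured genes were higher (10.8%) and 945 lower (27.2%). The 14 cells of CBMA_18m made up most of them, and the 98 S100a8 UMIs of 1 CBMD_12m cell set that cell apart. Another exception was a CBMA_18m cell with 2764 UMIs, which was poor in matrix transcripts. It had 8 Acta2, 11 Tagln and 7 Mylk UMIs, with 1 Col1a1, 0 Sfrp2 and 5 Mgp UMIs. All 3 measured osteoblast markers and 7 of 7 measured fibroblast and suture markers were higher. The cells are called here by their rule, and they are 19 of the 123.

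Within CBMA_18m, where both groups had at least 10 cells, 672 of 2275 measured genes (29.5%) were at least 2-fold higher in the 50 Myh11-high cells than in the 15 Myh11-low cells and 281 (12.4%) were lower. A gene counted as measured with at least 50 UMIs over both groups. Since 14 of the 15 Myh11-low cells were low in Rgs5 too, this set Myh11-high cells against mostly matrix-rich cells. Pcp4l1, a relative of the calmodulin regulator Pcp4, had 585 UMIs in 48 of the 50 cells and 0 in the 15, at least 61.7-fold higher. Sncg (a synuclein) had 516 UMIs against 0, Pln 484 against 0 and Npy1r (a receptor of neuropeptide Y) 362 against 0, which makes them at least 54.5-fold, 51.1-fold and 38.2-fold higher. Sparcl1, a secreted relative of Sparc, stood at 3408 CPM against 12.0, and its 2 UMIs on the low side came from 1 cell. On the other side, Sfrp2 had 1582 UMIs in the 15 cells against 2, and Gm26771, Mmp2 (a gelatinase) and the imprinted RNA H19 had 193, 132 and 123 UMIs against 0. Spp1 (osteopontin) had 265 UMIs against 1, with 64.5% of the 265 in 1 cell.

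Of the contractile list, 21 of 23 measured genes were among the higher ones there and none among the lower (median log2 ratio 3.24, against 0.32 for all genes). The list of cGMP and G-protein control had 10 of 11 higher, that of channels and calcium 9 of 11 and the SRF and myocardin regulators 10 of 11, with none lower in any. Of the pericyte list, 12 of 15 were higher, among them Rgs4 with 193 UMIs against 0, and Aspn and Postn were lower. Of the fibrillar matrix list, 23 of 25 were lower and none higher. All 36 measured genes of oxidative phosphorylation were within 2-fold or higher, 20 of them higher. The neutrophil list, which mural cells should lack, had 6 of 6 measured genes higher in Myh11-high cells (median log2 ratio 4.13), and its part in the other differences was not tested. S100a8 had 628, 447 and 348 UMIs in single Myh11-high cells, each with Ptprc UMIs, and at most 10 in the others.

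Rgs5 marked a second difference among Myh11-high cells, described in the 2 libraries with at least 5 cells on each side. These were CBMA_18m, with 8 Rgs5-high and 42 Rgs5-low cells, and CBMD_02m, with 17 and 5. In both libraries the Myh11-high cells with fewer than 10 Myh11 UMIs were all on the Rgs5-high side. The part of this in the differences was not tested. A gene counted only if at least 2-fold apart in the same direction in both. Of 2249 measured genes, 36 (1.6%) were higher and 49 (2.18%) lower in Rgs5-high cells. CBMA_18m alone gave 266 such genes and CBMD_02m alone 64.

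**Figure D4:**
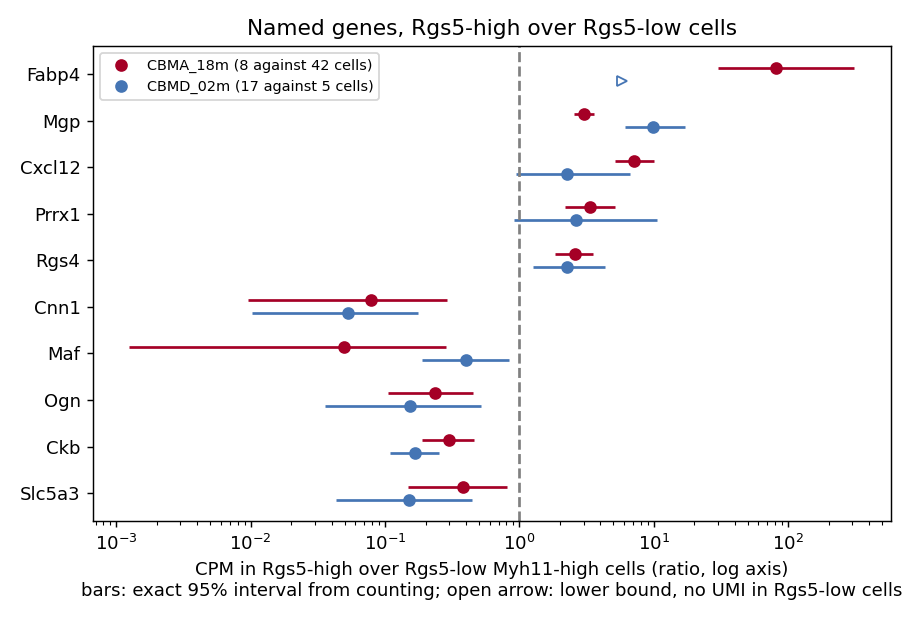
Ratio of CPM in Rgs5-high over Rgs5-low cells among Myh11-high cells, on a log axis, for the 10 named genes in CBMA_18m (8 against 42 cells) and CBMD_02m (17 against 5 cells). Bars are exact 95% intervals from counting, and the open arrow marks a lower bound where Rgs5-low cells had 0 UMIs. The 5 higher genes stand right of 1 in both libraries and the 5 lower genes left of it.

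Lower in Rgs5-high cells were some genes of contraction, though the limits let Rgs5-high cells in with fewer Acta2 UMIs. Cnn1 (calponin, an actin-binding protein of mature smooth muscle) stood at 29.0 CPM against 368 in CBMA_18m and at 27.2 against 512 in CBMD_02m, ratios of 0.0789 (0.00948 to 0.290) and 0.0531 (0.0102 to 0.175). It was found in 1 of 8 against 31 of 42 cells and in 2 of 17 against 4 of 5. Csrp1, Smtn and Ppp1r14a, also of the contractile list, were lower in both libraries, Ppp1r14a (an inhibitor of myosin phosphatase) at ratios of 0.319 and 0.381. Of the 23 measured genes of the list, 4 were lower in both and 0 higher (median log2 ratio -0.85, against -0.02 for all genes). Ckb, the brain form of creatine kinase, stood at 319 against 1060 CPM and 308 against 1834. Maf (a transcription factor), Ogn (a small matrix proteoglycan) and Slc5a3 (a myo-inositol transporter) had ratios of 0.0498, 0.234 and 0.377 in CBMA_18m and 0.400, 0.154 and 0.152 in CBMD_02m. The 9 and 4 Ogn UMIs of the Rgs5-high cells came from 1 cell in each library.

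Over the whole list the contractile apparatus summed to less in Rgs5-high than in Rgs5-low Myh11-high cells in each of the 5 libraries that held both. The sums were 38196 against 73839 CPM in CBMA_02m, 22554 against 74256 in CBMA_12m, 47188 against 71002 in CBMA_18m, 39719 against 97712 in CBMD_02m and 41346 against 88320 in CBMD_12m. This sum includes Acta2, Tagln and Myh11, and cells high in Rgs5 could meet the first limit without Acta2. Without the genes of the limits, the sums over the other 24 genes were 17266 to 28638 CPM in Rgs5-high and 41681 to 55732 in Rgs5-low cells, and the groups did not overlap across libraries. Leaving these genes out of the sum does not undo the choice of cells. Rgs5-low cells could enter only with Acta2 UMIs, while 1 Rgs5-high cell of CBMD_02m had 1 Acta2 and 113 Rgs5 UMIs. The sums therefore describe the choice, and its part in the difference was not tested. Rgs5-high cells numbered 2 in each of CBMA_02m and CBMA_12m and 3 in CBMD_12m, and the Rgs5-low side of CBMD_12m was 1 cell.

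Higher in Rgs5-high cells were 3 genes of the pericyte list. Steap4 had 27 and 30 UMIs in Rgs5-high cells against 7 and 0, Higd1b (a mitochondrial protein) had ratios of 7.23 (3.88 to 13.5) and 10.4 (2.73 to 88.3), and Rgs4 of 2.57 (1.84 to 3.55) and 2.25 (1.26 to 4.31). These were 3 of 17 measured genes of the list, with 0 lower (median log2 ratio 0.33, against -0.02 for all genes). Without the genes of the limits, the list summed to 8506 against 5727 CPM in CBMA_18m. In CBMD_02m it summed to 7417 (6917 to 7943) against 6375 (5673 to 7140), and the intervals overlapped. Abcc9 and Pdgfrb had 7 and 34 UMIs in Rgs5-high cells of CBMA_18m and 17 and 76 in CBMD_02m, with Pdgfrb ratios of 1.69 and 2.15. Of the 17 Abcc9 UMIs, 13 came from the CBMD_02m cell with 14 Cxcl12 UMIs described below. Mgp stood at 2816 against 933 CPM and at 3586 against 362. Prrx1, a transcription factor of limb and skull mesenchyme, had ratios of 3.36 (2.17 to 5.12) and 2.65 (0.917 to 10.5). B2m had ratios of 2.43 (1.68 to 3.46) and 6.30 (2.78 to 17.6), and the channel gene Ano1 17.2 and 10.6.

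Cxcl12, Mgp and B2m were past 2-fold in CBMA_18m through 1 cell, and most Fabp4 UMIs there came from 1 cell. Cxcl12 had 79 UMIs in the 8 Rgs5-high cells of CBMA_18m, 84.8% of them in 1 cell with 67, and its median level per cell was 115 CPM against 113 in Rgs5-low cells. The same cell held 47.4% of the 194 Mgp UMIs. Without it the CBMA_18m ratios were 1.27 for Cxcl12 (0.630 to 2.36), 1.86 for Mgp (1.48 to 2.31) and 1.10 for B2m (0.619 to 1.83), all under 2-fold, and 2.58 for Prrx1, 11.1 for Steap4 and 8.46 for Higd1b. In CBMD_02m, 1 cell held 43.8% of the Cxcl12 UMIs of the Rgs5-high cells. The median Cxcl12 level per cell there was 103 CPM in Rgs5-high and 188 in Rgs5-low cells, opposite to the summed ratio. Fabp4, a fatty acid binding protein, had 49 UMIs in the Rgs5-high cells of CBMA_18m, 85.7% of them in 1 cell. It had 52 in those of CBMD_02m, 59.6% in 1 cell. Between the Rgs5-high and Rgs5-low sides, neutrophil transcripts summed to 1219 against 9108 CPM in CBMA_18m and 23699 against 28889 in CBMD_02m, and their part in the result was not tested. S100a8 was at 0 to 8 UMIs in 18 of the 22 Myh11-high cells of CBMD_02m and at 61, 289, 602 and 758 in the other 4. With called doublets and cells with a Ptprc UMI left out, 38 genes were higher and 43 lower in both libraries, and without the cell with 67 Cxcl12 UMIs 29 were higher and 49 lower. Of the Rgs5-high cells, 1 of CBMD_02m, with 14 Cxcl12 UMIs, met the limits for Cxcl12-abundant stromal cells, and without it 32 genes were higher and 52 lower.

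Without the genes of the limits, the other 26 pericyte genes summed to 5983 CPM in Myh11-high Rgs5-low cells, 8650 in Myh11-high Rgs5-high cells, 14729 in Rgs5-high Myh11-low cells without the Cxcl12-abundant one and 3696 in cells low in both. The other 24 genes of the contractile apparatus summed to 43384, 25408, 6848 and 7338 CPM. Notch3, a Notch receptor of mural cells, stood at 954, 1299 and 1446 CPM in the first 3 groups and 64.0 in the cells low in both. Of the 17 genes of the Notch pathway, 8 were measured between these Rgs5-high Myh11-low cells and the Myh11-high cells, 1 of them higher and 2 lower. That is near the share over all 2881 measured genes, of which 331 (11.5%) were higher and 842 (29.2%) lower. Heyl, a Notch target, stood at 122, 125 and 443 CPM in the first 3 groups.

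Ages could be compared only among Myh11-high cells, since no 2 libraries of a site had 20 mural cells each. In CBMA, the 18m cells were 2-fold or more above the 02m cells in 329 of 1862 measured genes (17.7%) and below them in 110 (5.91%), over 50 and 7 cells. The 7 cells of CBMA_02m were all called doublets, though none held a Ptprc UMI, and all results against them carry that doubt. Scaled by median-of-ratios size factors (log2 shift of -0.32), 496 genes were higher and 40 lower. The 2 sums held 525531 and 52584 UMIs, and with the larger thinned to the smaller 16 genes were higher and 31 lower of 246 measured.

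Immediate early genes were higher at 18m than at 02m. Of 17 measured, 15 were higher at 18m and 1 (Klf4) lower, with a median log2 ratio of 1.88 against 0.03 for all genes. Fos stood at 247 CPM in CBMA_02m, 1431 in CBMA_12m, 1562 in CBMA_18m, 413 in CBMD_02m and 442 in CBMD_12m. Its 18m level was 6.32 times that at 02m (3.67 to 11.9), and those of Jun and Egr1 were 6.26 times (3.56 to 12.2) and 4.74 times (2.80 to 8.72). The sum of the immediate early genes was 3062, 8539 and 9855 CPM in Myh11-high cells of CBMA and 5804, 8678 and 13012 CPM in all quality-filtered cells of the same libraries. These genes are known to respond to tissue digestion, and the part of handling in the result was not tested. Socs3, an inhibitor of cytokine signals, had 181 UMIs at 18m and 1 at 02m, a ratio of 18.1 (3.21 to 719). Of the inflammatory list, 5 of 6 measured genes were higher and none lower (median log2 ratio 1.92). The 5 were Nfkbiz, Socs3, Cebpb, Cebpd and Lcn2, the last also on the neutrophil list. Of neutrophil transcripts, which mural cells should lack, 6 of 6 were higher (3.47), and their part in the result was not tested. S100a8 was high in few of the 18m cells, as given above.

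**Figure D5:**
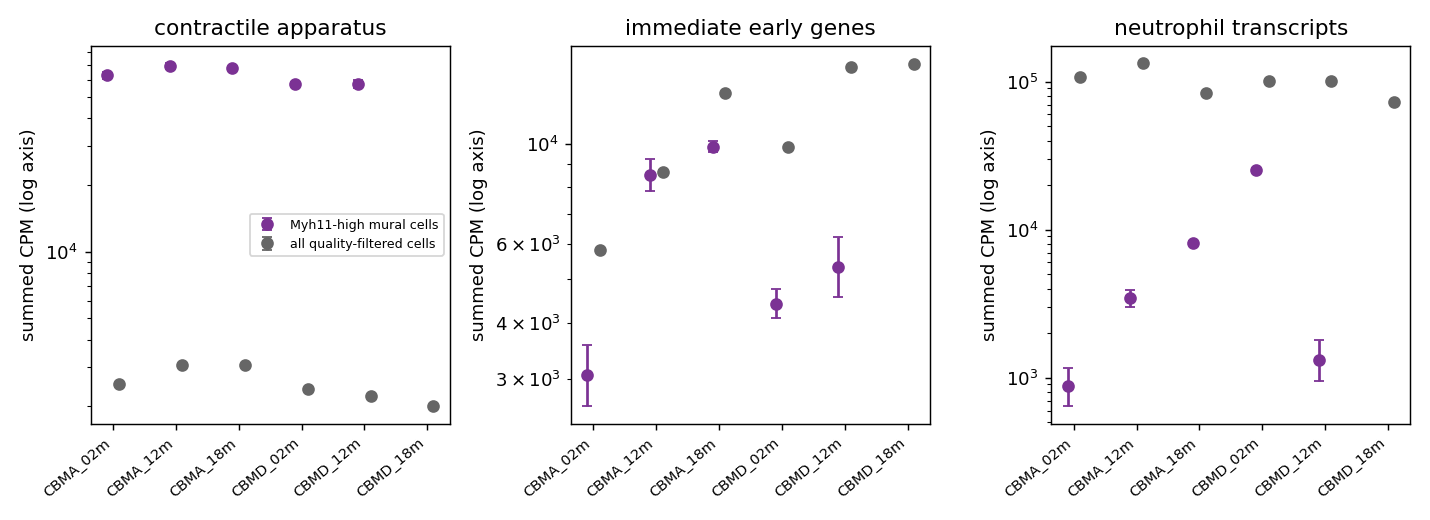
Summed CPM of 3 gene lists by library, on log axes, in Myh11-high mural cells (purple) and in all quality-filtered cells (grey), with exact 95% intervals from counting. The contractile apparatus lies between 57008 and 69142 CPM in the 5 libraries with Myh11-high cells, immediate early genes between 3062 and 9855, and neutrophil transcripts between 875 and 25247.

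Other named genes higher at 18m than at 02m had several roles. Thbs1 (thrombospondin, which can activate latent TGF-beta) had 118 UMIs in 32 of 50 cells against 0 in 7, at least 3.94-fold higher, and Adamts5 (an aggrecanase) 112 UMIs against 0, at least 3.74-fold higher. Adamts1, a related protease, stood at 577 against 76.1 CPM (7.58-fold, 2.93 to 28.0) and Ebf2, an early B-cell family transcription factor, at 188 against 19.0 CPM (9.91-fold, 1.74 to 395). Myocd, the coactivator of serum response factor, had 112 UMIs against 3 (3.74-fold, 1.25 to 18.4). The contractile list had 2 of 23 higher (Cnn1 and Synpo2) and 0 lower. The fibrillar matrix list had 2 of 10 higher (Fn1 and Thbs1) and 2 lower (Eln and Mgp), with a median log2 ratio of 0.03, and the basement membrane list 0 of 13 in either direction. Lower at 18m were Ndufa4l2 (0.207, 0.154 to 0.281) and Cox4i2 (0.342, 0.215 to 0.564), both subunits of respiratory complexes known to respond to hypoxia, and Tuba1a, Bsg and Mgp with ratios of 0.233, 0.375 and 0.261. In the 02m cells, 1 cell held 67.6% of the Ndufa4l2 UMIs, 59.5% of the Tuba1a UMIs and 71.4% of the Mgp UMIs. Ribosomal protein genes had 6 of 26 lower and 0 higher, and oxidative phosphorylation 6 of 36 lower and 0 higher.

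Between 12m and 18m in CBMA fewer genes differed. Of 1920 measured genes, 128 (6.67%) were at least 2-fold higher at 18m and 77 (4.01%) lower, over 50 and 10 cells, and with size factors (log2 shift of -0.43) 265 were higher and 16 lower. At 1.5-fold the balance turned, with 262 higher and 330 lower. The ratio of Fos was 1.09 (0.880 to 1.37), and 3 of 17 immediate early genes were higher and 1 lower. The first named genes, Gm42418 (8.32-fold, 7.78 to 8.91) and Lars2 (5.92-fold), were a transcript that overlaps ribosomal RNA sequence and a mitochondrial leucyl-tRNA synthetase. Gm42418 took 110051 CPM at 18m and 13231 at 12m. Thbs1 was 4.86-fold higher at 18m than at 12m (1.62 to 23.9), Socs3 3.73-fold (1.68 to 10.3) and Myocd 3.46-fold (1.32 to 12.9), the last in 43 of 50 against 2 of 10 cells. Lower at 18m were Jag1 (0.392, 0.257 to 0.612), found in 10 of 10 cells at 12m, Cox4i2 (0.362), Smarcd3 (a chromatin remodelling subunit, 0.442), Ube3a (a ubiquitin ligase, 0.450) and mt-Nd4 (0.453). Igkc, an antibody chain that mural cells should lack, had 74 UMIs at 18m and 75 at 12m, a ratio of 0.122. Xist was read in the 12m cells alone, as given above, so a difference in Xist-bearing cells and one in age cannot be told apart here.

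From 02m to 12m in CBMA, with 7 and 10 cells, only 312 genes were measured, of which 25 (8.01%) were higher at 12m and 22 (7.05%) lower. Fos was 5.79-fold higher at 12m (3.22 to 11.3) and Egr1 4.91-fold (2.77 to 9.36), 4 of 6 measured immediate early genes being higher and 0 lower. Igfbp5, a binding protein of insulin-like growth factors, stood at 5277 against 1559 CPM (3.38-fold, 2.65 to 4.36), mt-Nd3 and Mir6236 were 2.48-fold and 2.16-fold higher, and Tns1, a tensin of focal adhesions, 2.08-fold (1.45 to 3.01). Lower at 12m were Mgp (0.143), Gm42418 (0.164), Lars2 (0.223), Sparc (0.439) and Igfbp7 (0.496). All 15 measured contractile genes lay within 2-fold. Both this comparison and that of 18m used the same 7 cells of CBMA_02m, so the 2 are not independent. The 12m side again held the cells with Xist, and that cannot be told apart from age. Hes1 stood at 152 CPM in those cells, 815 at 12m and 645 at 18m. At the 3 ages neutrophil transcripts summed to 875, 3446 and 8074 CPM, and their part in the differences was not tested. S100a8, of that list, had 628, 447 and 348 UMIs in single cells of CBMA_18m. It had at most 10 in the other Myh11-high cells there, and 2 to 11 in those of CBMA_12m.

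The sites were compared at 02m, between 22 Myh11-high cells of CBMD and 7 of CBMA. Of 556 measured genes, 47 (8.45%) were at least 2-fold higher in CBMD_02m and 16 (2.88%) lower, or 62 and 6 with size factors (log2 shift of -0.17). With the larger sum thinned to the smaller, 7 of 247 measured genes were higher and 10 lower. Hes1, a Notch target, stood at 585 against 152 CPM (3.84-fold, 1.87 to 9.17), and Kitl at 350 against 95.1 CPM (3.68-fold, 1.48 to 11.8). Ndufa4l2 (0.359, 0.254 to 0.507), Gm42418 (0.459) and mt-Nd3 (0.490) were lower. The contractile list had 1 of 17 lower (Smtn, 0.493) and 0 higher, and the pericyte list 1 of 13 higher (Itga7) and 2 lower (Higd1b and Ndufa4l2). All 6 measured neutrophil genes and 2 of 2 leukocyte genes were higher in CBMD_02m, where neutrophil transcripts summed to 25247 CPM against 875, and their part in the other differences was not tested. The Rgs5-high cells were 17 of the 22 and 2 of the 7, and among Rgs5-low cells alone 10 genes were higher and 9 lower of 195 measured.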

How the data were processed

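Single-cell RNA libraries (10x Genomics 3' v3) were made from 6 pools of mouse calvarial cells. The authors made the deposited raw UMI counts with Cell Ranger 5.0.1 on GRCm38. Of 43420 barcodes, 37576 passed limits of 500 to 5000 genes, more than 500 UMIs and less than 25% of UMIs from mitochondria. This is more than the study states after its own filter. Scrublet's automatic threshold called 181 cells (0.482%), so cells were instead called by rank at 0.8% per 1000 barcodes (2393 cells, 6.37%) and kept in the main values.

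For each group of cells the UMIs were added up and given as CPM. With 1 library per age and site no test was made. Ratios carry exact binomial 95% intervals and shares Clopper-Pearson intervals, which cover counting error only. A gene counted as measured with at least 50 UMIs in a comparison, and as higher or lower past 2-fold. Levels against 0 UMIs were bounded at a floor of 3 UMIs over the group. Named genes were the 5 with the largest ratio per direction among genes with at least 100 UMIs that were also 2-fold higher in mural cells than in all cells, leaving out the genes of the limits (also left out of all counts of measured genes), Xist and Y-linked genes. From each list up to 6 genes of the highest level in mural cells could be named. The leading genes of the 2 small groups and the remaining list genes were named after their values were seen.

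The members and the 32 gene lists were chosen with earlier results of these data known. Planned comparisons needed 20 mural cells per library, or 10 per side of a split, and could be made only for the Myh11 split of CBMA_18m, so comparisons with at least 5 Myh11-high cells were added after the data were seen, as was the CArG search. Alternatives varied the limits, scaling, UMI minimum, fold and depth, and left out called doublets, cells with a Ptprc UMI, members rich in Cxcl12 and single libraries. The counting of genes past 2-fold was also run on simulated counts. These used the UMI totals of all mural cells of a library and had no variation between cells. They therefore say nothing about the spread between cells in the comparisons of Myh11-high cells. Python 3.11.15, numpy 2.4.6, scipy 1.17.1, pandas 2.3.3 and scanpy 1.11.5 were used.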

Additional observations from a re-analysis of the deposited data

Results flagged for a closer look

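The share of mural cells at 18m over 02m was 5.93 in CBMA and 0.0924 in CBMD, opposite directions at the 2 sites under the same contrast of ages. Each value compares 1 library with 1 library, and the difference between the sites was not tested. With called doublets left out, the counts behind them were 58 and 1 cells in CBMA and 1 and 23 cells in CBMD. The 2 mural cells of CBMD_18m both went against the label. For Myh11-high cells alone the ratio was 8.47 in CBMA (3.82 to 22.2) and 0 in CBMD (0 to 0.219), the latter from 0 against 22 cells.

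Outside the quality limits, 9 barcodes also met the mural limits, 6 of them over the gene limit and 3 with under 500 genes. They entered no comparison, and counting them gave 132 mural cells.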

How the results depend on the processing

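No paired analysis was possible because each age and site is 1 library and no test was made. The number of mural cells lay between 100 and 138 under the 8 alternatives, and the Myh11-high share between 73.2 and 81% under those tried. The Rgs5-high share of Myh11-high cells was 31.2 to 36.6% with other limits or without doubted cells, but without single libraries it ranged from 21.1% (without CBMD_02m) to 55.8% (without CBMA_18m). Counts of genes 2-fold apart depended on the UMI minimum, as their construction implies. With at least 20 and at least 200 UMIs they were 2052 and 222 for the Myh11 split (main 953), 366 and 16 for the Rgs5 split (85), 1486 and 63 for 18m over 02m (439), 1035 and 22 for 18m over 12m (205), 206 and 7 for 12m over 02m (47) and 320 and 6 for the sites at 02m (63). At 1.5-fold the last 5 gave 258, 891, 592, 126 and 157. With the larger sum thinned, 18m over 02m gave 47, 18m over 12m 22 and the sites 17. With Rgs5-low cells alone, 12m over 02m gave 24 and the sites 19. The Rgs5 split gave 266 in CBMA_18m alone and 64 in CBMD_02m alone. The cause of these changes was not tested beyond the fewer genes measured. Size factors kept all 6 counts within 1.5 times when both directions were summed, but not each direction. Genes lower went from 110 to 40 for 18m over 02m, from 77 to 16 for 18m over 12m and from 16 to 6 for the sites. Genes higher went from 128 to 265 for 18m over 12m. Among log2 ratios of named genes, 0 reversed, 15 moved by more than their counting interval and 122 did not. Leaving out called doublets and cells with a Ptprc UMI gave no value for comparisons with CBMA_02m, where no Myh11-high cell was left, and the planned comparison of Rgs5-high Myh11-low cells between libraries was not run for want of cells. Depth limits the 12m over 02m comparison most, with 312 measured genes.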

Other observations

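Basement membrane genes were split in mural cells: of 20 measured, 9 were at least 2-fold higher than in endothelial cells and 4 lower (median log2 ratio 0.69). Against Cxcl12-abundant stromal cells, 8 of 20 were higher and 5 lower. Of all measured genes, 11.2% were higher and 23% lower than in endothelial cells, and 12.4% higher and 14.6% lower than in Cxcl12-abundant stromal cells. Of 38 genes of oxidative phosphorylation, 27 were higher in mural cells than in Cxcl12-abundant stromal cells and 13 higher than in endothelial cells, with 0 lower in both. Of 26 ribosomal protein genes, 11 were lower than in endothelial cells and 0 higher. These cells were chosen by measured genes, so the counts describe them without a test.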
